A study of Mus musculus with 8 samples.

Results

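The guanylate-binding protein (GBP) and immunity-related GTPase (IRG) genes Gbp2, Gbp3, Gbp4, Gbp5, Gbp6, Gbp7, Irgm1, Irgm2, Igtp and Iigp1 were followed across CT26 tumours and CT26 cultures. The 10 genes were chosen by symbol as members of 2 interferon-inducible families, and each symbol matched 1 of the 56953 gene identifiers of the count table. They were chosen with results of these comparisons known, and which measured values played a part is not given, so any of the comparisons below may have. Their fold changes and calls are therefore a description, and an adjusted p says only whether a difference exceeded the spread between libraries in a fit across all genes. CT26 is a mouse colorectal carcinoma line. Transplanted CT26 tumours had been treated with normal saline or with mLJZD, a drug name that the labels leave unexpanded, and CT26 cultures had received 10% control serum or 10% serum containing mLJZD for 48 hours. Each of these 4 groups had 2 libraries. Nothing in the labels tells whether a group's libraries are independent animals or dishes; a p-value therefore reflects the variation among the sequenced libraries, possibly of technical origin. No strain, age or sex of the tumour hosts was available here, and the tumour libraries are bulk tissue.

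GBPs are large dynamin-related GTPases that assemble on intracellular microbes and their vacuoles, and Gbp2 and Gbp5 carry a lipid anchor that holds them to membranes. IRGs are smaller GTPases of the same host defence system: Irgm1, Irgm2 and Igtp act as regulators that protect the cell's own membranes, and Iigp1 is an effector that loads onto vacuoles. Both families are classic targets of interferon-gamma, whose receptor signals through the kinases Jak1 and Jak2. Its promoter elements include the gamma-activated site (GAS) and the interferon-stimulated response element (ISRE), which Irf1, itself induced by interferon-gamma, can bind. Within a tumour, interferon-gamma is made mainly by T and NK cells, and tumour cells as well as host cells can respond to it.

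Library totals ran from 16594912 to 29363861 counts. Within each group the libraries differed by more than sampling noise, with a chi-square per degree of freedom of 2.69 to 11.6 over genes, so all 8 were counted. Among epithelial markers, mean Krt20 was 273 CPM in saline tumours, 175 CPM in mLJZD tumours, 143 CPM in control-serum cultures and 207 CPM in mLJZD-serum cultures, and mean Krt18 was 16.2, 2.04, 34.9 and 30.6 CPM in the same order. Krt8 (2.84 CPM or less) and Krt19 (1.46 CPM or less) were low, and Cdx2, Vil1 and Epcam stood at 0.617 CPM or less in every group mean. T and NK cell markers summed to 236 to 243 CPM (counts scaled to the library total) in saline tumours and 269 to 289 CPM in mLJZD tumours. In control-serum cultures they summed to 0.135 to 0.299 CPM, with 9 of 10 at 0 counts, and in mLJZD-serum cultures to 0.147 to 0.238 CPM, with 8 of 10 at 0; Cd3d, Cd3e, Cd8a, Ncr1 and Gzmb were at 0 in all 4 culture libraries. In bulk samples, fewer cells of a type and less RNA per cell cannot be told apart.

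Where the members sit, and what their promoters hold, is shown first, because members that lie side by side are compared later. In the reference annotation Gbp5, Gbp7 and Gbp3 follow each other on chromosome 3, and Gbp2b separates Gbp3 from Gbp2. Gbp4 lies between Gbp9 and Gbp10 on chromosome 5, and Gbp6 lies beyond Gbp10. Igtp and Irgm2 are neighbours on chromosome 11, where Irgm1 also lies. RefSeq promoter windows on build GRCm38.p6, 250 bases before to 50 bases after a start, were matched for 7 of the 10 members. All 7 held an ISRE core, spelled GAAANNGAAA and read on both strands, and 4 of them, Gbp5, Gbp7, Igtp and Irgm2, also held a GAS motif, TTCNNNGAA, which reads the same on both strands. Among all 32851 windows of this length, 3.44% held the ISRE core, 8.3% the GAS motif and 0.454% both. The stretches around these motifs are given 5′ to 3′ on the gene's strand, with ISRE cores and GAS motifs in capitals; where 2 motifs overlap, as in Gbp3 and Irgm1, their capitals run together.
Gbp5, chr3:142496684-142496910, plus strand: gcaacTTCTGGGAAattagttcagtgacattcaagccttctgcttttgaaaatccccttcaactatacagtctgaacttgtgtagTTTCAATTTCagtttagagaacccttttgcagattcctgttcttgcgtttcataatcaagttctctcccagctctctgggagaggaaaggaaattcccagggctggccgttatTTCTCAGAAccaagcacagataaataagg
Gbp7, chr3:142530210-142530312, plus strand: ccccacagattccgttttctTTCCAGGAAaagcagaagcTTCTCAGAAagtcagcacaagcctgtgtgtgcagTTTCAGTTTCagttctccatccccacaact
Gbp3, chr3:142559979-142560034, plus strand: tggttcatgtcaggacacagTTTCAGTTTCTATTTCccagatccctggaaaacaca
Gbp2, chr3:142620584-142620633, plus strand: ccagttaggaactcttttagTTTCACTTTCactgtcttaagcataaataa
Irgm1, chr11:48871415-48871470, minus strand: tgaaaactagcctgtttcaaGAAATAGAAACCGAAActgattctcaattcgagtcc
Igtp, chr11:58199491-58199551, plus strand: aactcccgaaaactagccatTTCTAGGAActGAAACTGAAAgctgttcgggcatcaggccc
Irgm2, chr11:58214882-58214942, plus strand: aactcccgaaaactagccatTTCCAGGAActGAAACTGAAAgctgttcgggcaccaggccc

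The Igtp and Irgm2 stretches are equal at 59 of 61 bases, and both carry the same ISRE core 2 bases after a GAS motif. The GAS motif begins at position -45 from the start site in Igtp and -75 in Irgm2, and over the whole 300-base windows, laid side by side without gaps, 77 bases were equal. Gbp5 and Gbp7 each hold 2 GAS motifs and 1 ISRE core, whereas the Gbp2, Gbp3 and Irgm1 windows hold ISRE cores without a GAS motif. Gbp3 has a further RefSeq window, for another start, with neither motif. A match of letters is a description of these windows and no evidence of binding.

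All 10 members stood far higher in saline tumours than in control-serum cultures. Together they made up 1756 to 1772 CPM in saline tumours and 1774 to 1789 CPM in mLJZD tumours, against 57.3 to 62.4 CPM in control-serum cultures and 81.8 to 83.4 CPM in mLJZD-serum cultures. The comparison of saline tumours with control-serum cultures sets tumour tissue against the cultured line, and its groups are also the controls of the drug comparisons below. All 10 members were called higher in tumours with edgeR at an adjusted p under 0.05, against 44.9% of the 15332 genes tested that were called higher and 35.8% that were called lower. Gbp5, Gbp6 and Iigp1, with at most 6 reads in a control-serum culture, passed the filter on low counts only through their tumour reads. For them a higher call was largely set in advance. The members' median log2 difference was 5.90, beside 0.152 over all genes. Differences in this comparison ran along transcript length over all genes, from a median log2 of -0.608 for longest transcripts under 1000 bases to 1.23 above 8000 bases. With the length and GC trend removed, all 10 were still called higher, with a median of 5.54 beside 0.214 over all genes; Gbp7 moved from 5.97 to 5.48 and Igtp from 4.06 to 4.55.

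**Figure D1:**
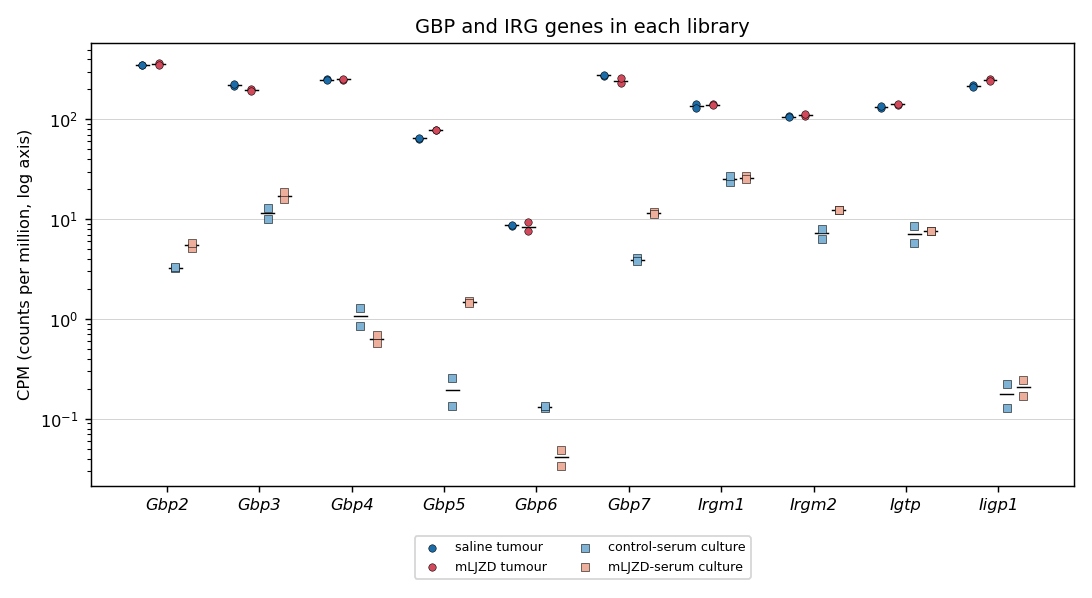
CPM of the 10 GBP and IRG genes in every library, on a log axis; points are libraries and the short lines are group means (2 libraries a group). Circles, the tumour libraries, lie above squares, the cultures, for every gene; the closest pair of values is that of Irgm1, with 27.1 CPM in a control-serum culture and 129 CPM in a saline tumour.

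Iigp1, the effector IRG, spanned the widest range. It stood at 221 and 212 CPM in the saline tumours, and 3 and 5 reads in the control-serum cultures gave 0.128 and 0.225 CPM. The log2 difference was 10.06 (SE 0.134), a fitted fold of 1070 that rests on those 8 culture reads. Gbp5, a prenylated GBP known for its part in inflammasome assembly, came next: 63.2 and 65.5 CPM in saline tumours and 0.256 and 0.135 CPM, or 6 and 3 reads, in control-serum cultures (log2 8.15, SE 0.183). For both genes every tumour library was more than 2 orders of magnitude above every culture library, mLJZD-serum cultures of Gbp5 (1.52 and 1.43 CPM) excepted.

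Gbp4, which is reported to restrain the interferon regulator IRF7, stood at 255 and 246 CPM in saline tumours and at 1.28 and 0.856 CPM in control-serum cultures (log2 7.70, SE 0.106). Gbp2, the GBP of this set with the highest level in tumours, stood at 352 and 348 CPM against 3.24 and 3.29 CPM (log2 6.58, SE 0.0774). Gbp7, which is linked to assembly of the phagocyte oxidase on vacuoles, stood at 274 and 279 CPM against 4.06 and 3.83 CPM (log2 5.97, SE 0.079). In these 3 genes the groups lay far apart; the widest spread within a group was that of Gbp4 in culture, at 30 and 19 reads.

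Gbp6 was the least abundant member, with 8.58 and 8.84 CPM in saline tumours and 3 reads in each control-serum culture (0.128 and 0.135 CPM; log2 5.83, SE 0.350). Its value is uncertain, because 82.9% of the 100-base windows of its longest coding transcript also occur in transcripts of Gm43302, Gbp10 or Gbp11, and the authors' rule for reads that map to several places is not known here. The same overlap was 10.2% for Gbp7, mostly with Gm43802, 5.67% for Igtp, with Irgm2, 2.88% for Gbp4, 2.48% for Irgm2 and 0.93% for Gbp3, and 0 for the other members.

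The smallest differences were those of Gbp3 and the 3 regulatory IRGs. Gbp3 stood at 218 and 227 CPM in saline tumours and 9.95 and 13.1 CPM in control-serum cultures (log2 4.12, SE 0.0879). Igtp stood at 130 and 135 CPM against 8.45 and 5.72 CPM (log2 4.06, SE 0.116), and Irgm2 at 109 and 105 CPM against 6.40 and 8.02 CPM (log2 3.73, SE 0.0937). Irgm1, whose product guards mitochondria and lysosomes and is needed for survival of mycobacterial infection, had the smallest difference, with 141 and 129 CPM against 23.4 and 27.1 CPM (log2 2.26, SE 0.076). The members thus differed from 4.79-fold to 1070-fold between tumour and culture, and the genes with the most RNA in culture had the smallest folds. Because the fold is divided by that same culture level, this relation is partly built in.

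Per kilobase of the longest transcript, the order of the members was not the same in tumours and cultures. In saline tumours Gbp2 led with 139 CPM per kb (SD 0.958, n = 2), followed by Gbp3 (82.9), Iigp1 (69.4), Igtp (65.7), Gbp4 (55.2), Gbp7 (49.3), Irgm1 (35.3), Irgm2 (30.3), Gbp5 (17.1) and Gbp6 (2.05). No neighbours in that order overlapped between libraries, but the order also depends on the length used. For Irgm1 (3832 bases), Gbp5 (3756) and Gbp6 (4243) the longest transcript exceeds the longest coding one (2259, 3055 and 2604 bases). By coding length Irgm1 would stand above Gbp7 and Gbp4 in saline tumours. In control-serum cultures Irgm1 led with 6.59 CPM per kb (SD 0.672), followed by Gbp3 (4.29), Igtp (3.50), Irgm2 (2.04), Gbp2 (1.30) and Gbp7 (0.702), and Gbp4 (0.235), Iigp1 (0.0566), Gbp5 (0.0521) and Gbp6 (0.0310) stood last. There the libraries of Gbp3 and Igtp overlapped, as did those of Iigp1 and Gbp5, so their places are not separated.

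**Figure D2:**
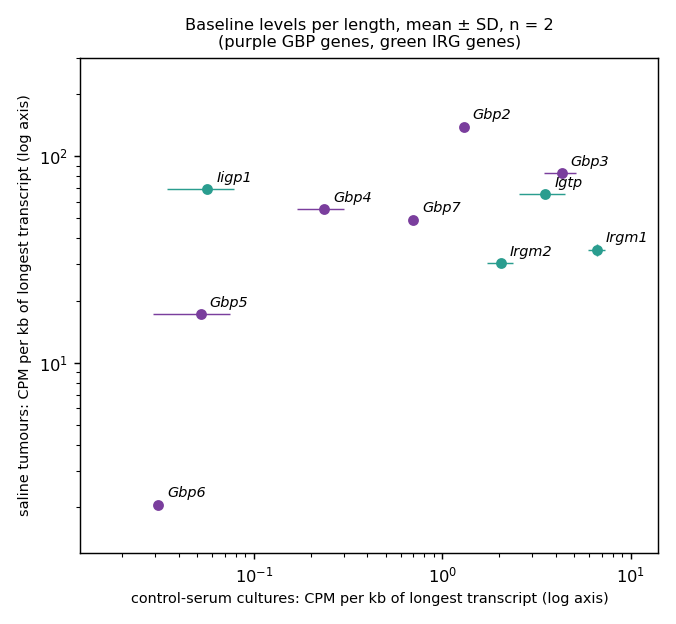
Mean level per kilobase of the longest transcript in control-serum cultures (horizontal, CPM per kb) and saline tumours (vertical, CPM per kb), both log axes, with SD bars over 2 libraries; purple points are GBP genes and green points IRG genes. By this length Irgm1 lies farthest right at 6.59 CPM per kb in culture but 7th in tumours. Gbp2 is highest in tumours at 139 CPM per kb but 5th in culture.

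The mLJZD groups kept most of these places. In mLJZD tumours Iigp1 (80.2 CPM per kb) stood above Gbp3 (73.7), the reverse of saline tumours, and the libraries of the pair did not overlap. In mLJZD-serum cultures Gbp5 (0.392 CPM per kb) stood above Gbp4 (0.139), again the reverse of the control cultures, while Irgm1 (6.81) and Gbp3 (6.43) overlapped.

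In tumours, mLJZD was accompanied by small differences in these genes, with 2 of the 10 called higher, 2 called lower and 6 not called (edgeR, adjusted p under 0.05). Over all 15417 genes tested, 16.1% were called higher and 16.9% lower, so the members' counts lie near the background. The members' median log2 difference was 0.076, beside 0.001 over all genes, and no member exceeded 1.25-fold.

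Gbp5 rose from 63.2 and 65.5 CPM to 78.4 and 78.9 CPM, a log2 difference of 0.32 (SE 0.057, edgeR adjusted p = 1.78e-05). Iigp1 rose from 221 and 212 CPM to 256 and 245 CPM (log2 0.24, SE 0.0476, edgeR adjusted p = 8.28e-05). The libraries of the groups did not overlap for either gene, nor did they for Gbp2 and Irgm2, which were not called. How many of all genes had groups that did not overlap was not counted, so here and below this is description only. Both calls held under 18 of 19 alternative settings and were lost without mLJZD tumour replicate 1 when edgeR's robust estimation was also left out (adjusted p = 0.0577 for Gbp5 and 0.0854 for Iigp1), where the log2 differences were 0.32 and 0.20.

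Gbp3 fell from 218 and 227 CPM to 202 and 194 CPM (log2 -0.14, SE 0.0488, edgeR adjusted p = 0.0268). Gbp7 fell from 274 and 279 CPM to 231 and 258 CPM (log2 -0.15, SE 0.0485, edgeR adjusted p = 0.0173). These calls did not hold firmly: that of Gbp3 was lost under 11 of 19 alternatives and that of Gbp7 under 10 of 19. With DESeq2 the adjusted p was 0.0943 for Gbp3 and 0.066 for Gbp7. Each call was also lost without saline replicate 1 (0.0674 and 0.0921) and without saline replicate 2 (0.352 and 0.182), that of Gbp7 without mLJZD replicate 1 (0.163, with a log2 difference of -0.077) and that of Gbp3 without mLJZD replicate 2 (0.146).

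The other members did not pass. Igtp stood at 130 and 135 CPM in saline tumours and 140.2 and 143 CPM in mLJZD tumours (log2 0.12, SE 0.0539, edgeR adjusted p = 0.0744), groups that did not overlap; it passed without mLJZD replicate 2 (0.13, adjusted p = 0.0262). Irgm2 (log2 0.092), Irgm1 (0.088), Gbp2 (0.063), Gbp4 (0.034) and Gbp6 (-0.019) had smaller differences, and the libraries of Irgm1, Gbp4 and Gbp6 overlapped between groups. The SE of Gbp6, 0.153, was the largest of the members, at 7.53 to 9.34 CPM in the tumour libraries.

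Cell type markers moved in the same tumours, where 16.1% of all genes tested were called higher and 16.9% lower. T and NK cell markers summed to 236 to 243 CPM with saline and 269 to 289 CPM with mLJZD; of the 10, 2 were called higher and 2 lower, and their median log2 difference was -0.048. Macrophage and monocyte markers summed to 2700 to 2759 CPM and 2470 to 2569 CPM (1 called higher, 3 lower of 10). Neutrophil markers summed to 19.1 CPM in each saline library and 36.4 to 37.7 CPM with mLJZD (7 of 8 tested called higher), B and plasma cell markers to 26.7 to 27.7 and 324 to 358 CPM (4 of 6 higher), and skeletal muscle markers to 2165 to 2186 and 355 to 364 CPM (6 of 6 lower). Erythroid markers summed to 18.2 to 22.2 CPM with saline and 43.8 to 47.0 CPM with mLJZD (5 of 5 higher). Between saline tumours and control-serum cultures only 3 neutrophil, 4 B and plasma cell and 4 erythroid markers passed the filter. The others tested here, such as Mpo and Elane with 0 reads in saline tumours, needed the mLJZD libraries to pass. For those a higher call was largely set in advance. Epithelial and colon markers, which the tumour cells themselves can express, summed to 294 to 299 CPM and 183 CPM (3 of 4 tested lower: Krt8, log2 -3.11, Krt18, -2.96, and Krt20, -0.61). The part of these shifts in the GBP and IRG values was not tested.

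In cultures, mLJZD serum was accompanied by larger differences at much lower levels. Of 8 members tested, 5 were called higher (Gbp5, Gbp7, Irgm2, Gbp2 and Gbp3), none was called lower and 3 were not called. Gbp6 and Iigp1 had too few reads to pass the filter. Gbp5, with 6 and 3 control-serum reads, passed it only through its mLJZD-serum reads, so its higher call was largely set in advance. Over all 13299 genes tested, 29% were called higher and 26.7% lower. The members' median log2 difference was 0.616, beside -0.013 over all genes.

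Fold changes in these cultures also ran along transcript length over all genes: the median log2 difference was -0.763 for genes whose longest transcript is under 1000 bases and 1.005 above 8000 bases. Each member was therefore also read with the length and GC trend removed from every library. The same 5 members were then called higher and none lower, against 21.3% of all genes called higher and 16.8% called lower, and the members' median was 0.571, beside 0.045 over all genes.

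Gbp5 rose most. From 6 and 3 reads in the control-serum cultures it rose to 31 and 42 reads, that is from 0.256 and 0.135 CPM to 1.52 and 1.43 CPM (log2 2.81, SE 0.611, edgeR adjusted p = 0.000493; 2.67 with the trend removed, adjusted p = 0.00139). Gbp7, with the longest transcript of the members at 5614 bases, rose from 4.06 and 3.83 CPM to 11.7 and 11.4 CPM (log2 1.49, SE 0.186, edgeR adjusted p = 7.03e-07), and by 0.91 with the trend removed (adjusted p = 0.000431). Neither gene's libraries overlapped between the groups, and both calls held under all 22 alternatives run.

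Irgm2 rose from 6.40 and 8.02 CPM to 12.3 CPM in each mLJZD-serum library (log2 0.71, SE 0.170, edgeR adjusted p = 0.00119; 0.57 with the trend removed). Gbp2 rose from 3.24 and 3.29 CPM to 5.19 and 5.82 CPM (log2 0.70, SE 0.237, edgeR adjusted p = 0.0162; 0.79 with the trend removed). Gbp3 rose from 9.95 and 13.1 CPM to 15.9 and 18.6 CPM (log2 0.53, SE 0.156, edgeR adjusted p = 0.00628; 0.57 with the trend removed). The groups did not overlap for these genes. The transcripts of Gbp2 and Gbp3, 2516 and 2682 bases, lie in the class of 2000 to 3000 bases, whose median log2 difference was -0.214 and of which 8.5% were called higher.

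The call of Gbp2 was lost with DESeq2 (log2 0.70, adjusted p = 0.0513), without control-serum replicate 1 (0.70, adjusted p = 0.0514) or 2 (0.70, adjusted p = 0.0548) and without mLJZD-serum replicate 2 (0.62, adjusted p = 0.102). That of Gbp3 was lost without control-serum replicate 1 (0.36, adjusted p = 0.0999) and without mLJZD-serum replicate 2 (0.42, adjusted p = 0.0635). That of Irgm2 held under 20 of 22 alternatives, including each library left out alone, and was lost only without control-serum replicate 1 or mLJZD-serum replicate 2 when the trend was removed as well (adjusted p = 0.126 and 0.0502). In those 2 fits the count of members called higher was 2, Gbp5 and Gbp7.

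Gbp4 went the other way in its values, from 30 and 19 reads to 14 and 17 reads, or 1.28 and 0.856 CPM to 0.685 and 0.579 CPM, groups that did not overlap. The difference did not pass (log2 -0.83, SE 0.527, edgeR adjusted p = 0.194; -1.22 with the trend removed, adjusted p = 0.0739), but was called when all 8 libraries shared 1 fit (log2 -0.92, adjusted p = 0.0107). Irgm1 stood at 23.4 and 27.1 CPM and at 26.8 and 25.4 CPM (log2 -0.010, SE 0.116), and Igtp at 8.45 and 5.72 CPM and at 7.53 and 7.66 CPM (log2 0.040, SE 0.202); the libraries of both overlapped between groups. Igtp and Irgm2, whose promoter stretches above differ at 2 bases, thus had log2 differences of 0.040 and 0.71 in cultures and 0.12 and 0.092 in tumours; whether the pair differed was not tested.

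The members left out by the filter were close to the limit of detection. Gbp6 had 3 reads in each control-serum culture and 1 read in each mLJZD-serum culture, and no fold is given. Iigp1 had 3 and 5 reads with control serum and 5 reads in each library with mLJZD serum, so the most tumour-biased member showed no difference that could be detected at this depth.

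**Figure D3:**
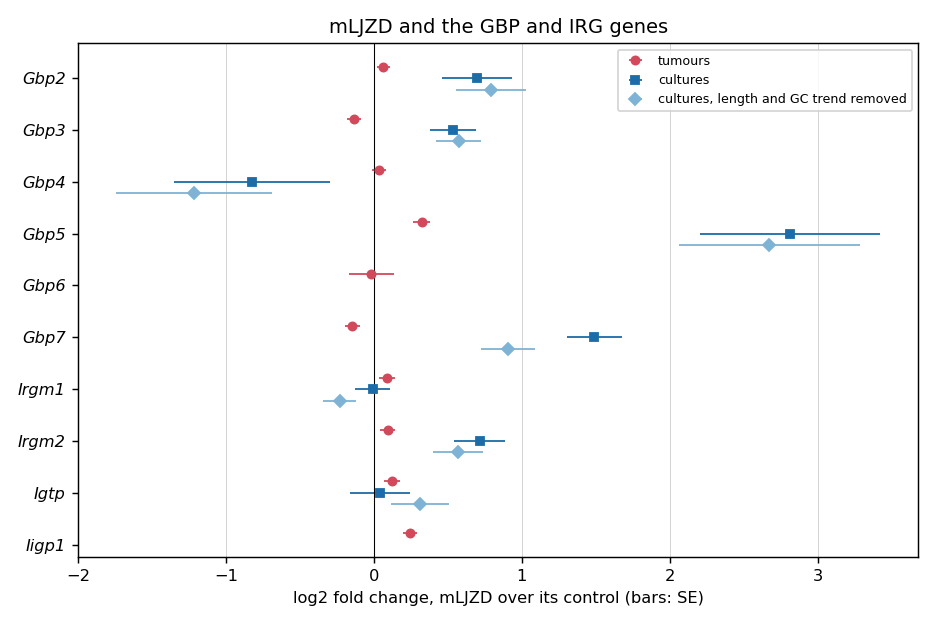
Log2 fold change of each GBP and IRG gene, mLJZD over its control, in tumours (red circles), cultures (dark blue squares) and cultures with the length and GC trend removed (light blue diamonds); bars are SE from edgeR with 2 libraries a group. Tumour values lie between -0.15 and 0.32, culture values between -0.83 for Gbp4 and 2.81 for Gbp5; Gbp6 and Iigp1 have no culture value because they failed the filter.

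The effect of mLJZD in tumours was set against that in cultures in an interaction over all 8 libraries, which uses the same libraries as the comparisons above. This fit shares its dispersion per gene between tumours and cultures. Its SE was therefore smaller than that of the culture effect it contains for every member called here. A call in it is no firmer than the culture values it rests on. Of the 10 members, 5 had a lower effect in tumours and 1 a higher effect, against 20.8% of 16090 genes called lower and 23.9% called higher. The effect in tumours minus that in cultures was -2.40 for Gbp5 (SE 0.377, edgeR adjusted p = 1.20e-05), -1.55 for Gbp7 (SE 0.125, adjusted p = 5.32e-10), -0.59 for Gbp3 (SE 0.132, adjusted p = 0.000798), -0.56 for Gbp2 (SE 0.129, adjusted p = 0.001) and -0.54 for Irgm2 (SE 0.131, adjusted p = 0.00157). These are the members called higher in cultures, and each difference held under all 17 alternatives.

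Gbp4 was the member called with a higher effect in tumours (0.96, SE 0.266, edgeR adjusted p = 0.00913), though its difference in the culture fit did not pass. That call was lost without control-serum replicate 1 (0.61, adjusted p = 0.274) and without mLJZD-serum replicate 2 (0.82, adjusted p = 0.104). Irgm1 (0.18, adjusted p = 0.198) passed only when the trend was removed (0.31, adjusted p = 0.0251), or with the replicate number as a block as well (0.31, adjusted p = 0.0224). With the trend removed, 2 members were called higher and 5 lower, against 15.7% and 17.3% of all genes. Iigp1 and Gbp6 failed the filter in the cultures alone and entered the interaction only through their tumour reads. Igtp (0.17), Iigp1 (0.19) and Gbp6 (1.70, SE 0.977) did not pass, though Igtp passed without control-serum replicate 2 (0.42, adjusted p = 0.0141).

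Of the other genes of the 2 families, 16 in the count table, 15 could be tested between tumour and culture; Irgc1, at 0.0508 CPM in saline tumours, could not. All 15 were called higher in saline tumours, against 44.9% of all genes tested. Their median log2 difference was 6.78, or 6.51 with genes absent from culture set at their lower bound. Of these, 4 had no read in the control-serum cultures. In the cultures alone 6 of the 15 passed the filter on low counts. The others entered this comparison through their tumour reads, so a higher call was largely set in advance. So it was for 9930111J21Rik1 and Gm4951, with at most 5 reads in a control-serum culture. Taking a floor of 3 counts over the group, F830016B08Rik was at least 653-fold higher in saline tumours, Gm4841 at least 464-fold, Gm5431 at least 128-fold and Gbp11 at least 81.7-fold.

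Under mLJZD in tumours, 2 of the 15 were called higher, Gbp2b (log2 0.28, SE 0.0435), the mouse gene also known as Gbp1, and Tgtp1 (0.25, SE 0.0832), and 2 lower, Gbp10 (-0.27, SE 0.104) and Gbp9 (-0.21, SE 0.0521). These counts lie near the shares over all genes, 16.1% higher and 16.9% lower. On chromosome 3, the neighbours Gbp5, Gbp7, Gbp3, Gbp2b and Gbp2 thus had tumour log2 differences of 0.32, -0.15, -0.14, 0.28 and 0.063, with no common direction.

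In cultures 6 of these genes could be tested and 3 were called higher: 9930111J21Rik1 rose from 0.0854 and 0.225 CPM to 2.45 and 2.76 CPM (log2 3.98, SE 0.559), 9930111J21Rik2 from 3.24 and 2.79 CPM to 6.95 and 10.5 CPM (1.48, SE 0.233) and Gbp9 from 1.71 and 1.49 CPM to 4.01 and 3.37 CPM (1.142, SE 0.315). With the trend removed Gbp9 no longer passed (0.66, adjusted p = 0.107), and the others did (3.78 and 0.83). 9930111J21Rik1, with 2 and 5 control-serum reads, passed the filter only through its mLJZD-serum reads, so its higher call was largely set in advance. Over all genes 29% were called higher in cultures, and 21.3% with the trend removed. The chromosome 3 neighbours had culture log2 differences of 2.81 for Gbp5, 1.49 for Gbp7, 0.53 for Gbp3, 0.46 for Gbp2b, which did not pass (adjusted p = 0.0941), and 0.70 for Gbp2, all of 1 sign.

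The levels of the interferon-gamma pathway were read in the same libraries. Ifng, the ligand, stood at 1.27 and 1.11 CPM in saline tumours and 0.764 and 0.723 CPM in mLJZD tumours, groups that did not overlap, and the log2 difference, -0.64 (SE 0.441), missed the threshold (edgeR adjusted p = 0.288). It had no read in any culture library, so saline tumours were at least 18.1-fold higher than control-serum cultures.

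Irf1 differed in direction between the materials. It rose in tumours from 111 and 114 CPM to 134 and 131 CPM (log2 0.27, SE 0.0525, edgeR adjusted p = 8.25e-05). In cultures its level dropped from 25.7 and 25.8 CPM to 19.9 and 17.6 CPM (-0.52, SE 0.122, adjusted p = 0.00107), a call lost with the trend removed (-0.20, adjusted p = 0.183). The difference between the effects was 0.87 (SE 0.112, edgeR adjusted p = 7.09e-07), and 0.48 with the trend removed (adjusted p = 0.000838). Saline tumours stood above control-serum cultures by a log2 difference of 1.96 for Irf1, less than for every GBP or IRG member.

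Of 15 genes of the interferon-gamma receptor and its signalling, 6 were called higher and none lower in mLJZD tumours (median 0.142), led by the feedback inhibitors Socs1 (log2 0.68) and Socs3 (0.50) and by Jak1 (0.45). Over all genes the shares called higher and lower were 16.1% and 16.9% in tumours and 29% and 26.7% in cultures. The culture shares were 21.3% and 16.8% with the trend removed. In cultures 3 of 13 were called higher, including Jak1 (0.75), Nlrc5 (0.75) and Jak2 (0.61), and 4 lower, led by Socs1 (-0.79); with the trend removed the counts were 1 and 2. In saline tumours 14 of 15 were higher and 1 lower than in control-serum cultures, against 44.9% and 35.8% of all genes. Ciita, the master regulator of MHC class II genes (7.72), and Irf8 (5.17) stood far above the median of 1.81. The value of Ciita rests on 4 and 0 reads in the control-serum cultures. Ciita and Ifng entered that comparison only through their tumour reads.

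Of 24 other interferon-gamma targets, 11 were called higher and 8 lower in mLJZD tumours (median 0.044), against 16.1% and 16.9% of all genes. The tryptophan-degrading enzyme Ido1 (log2 0.62), Upp1 (0.60), the checkpoint ligand Cd274 (0.59) and the MHC class II gene H2-Aa (0.56) were among those higher. In cultures 2 of 17 tested were called higher and 15 lower (median -0.648), against 26.7% of all genes called lower. The immunoproteasome subunit Psmb9 fell from 2.82 and 2.30 CPM to 0.636 and 0.545 CPM (log2 -2.18, SE 0.431), Cd74 from 3.29 and 3.47 CPM to 1.08 and 1.09 CPM (-1.69, SE 0.352) and Batf2 from 1.71 and 1.44 CPM to 0.391 and 0.681 CPM (-1.57, SE 0.506), while Cd274 rose (0.94, SE 0.386). With the trend removed 1 was called higher and 6 lower (median -0.229), against 16.8% of all genes called lower, and Psmb9 (-1.99) and Cd74 (-1.06) were among the 6. In saline tumours 23 of 24 were above control-serum cultures and 1 below, against 44.9% and 35.8% of all genes. Only 17 of the 24 passed the filter in the cultures. The others entered through their tumour reads, so a higher call was largely set in advance for them. H2-Ab1, H2-Aa and Cxcl9, which had no read in control-serum cultures, were at least 3240-fold, 2160-fold and 2090-fold higher.

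Type I interferon targets, which overlap the interferon-gamma response, were called higher in 4 and lower in 8 of 27 in mLJZD tumours (median -0.133). The shares over all genes were 16.1% and 16.9%. Rsad2 (log2 0.71) and Epsti1 (0.58) were higher and Ifi27l2a (-0.47) and Oas2 (-0.46) lower. With the trend removed 4 were called higher and 12 lower in these tumours. In that setting 5308 of all 15417 genes tested were called, 50.9% of them higher. In cultures 11 of 26 were called higher and 6 lower (median 0.274), against 29% and 26.7% of all genes. With the trend removed 12 were called higher and 1 lower, against 21.3% and 16.8%. In the main fit Rsad2 rose from 6.53 and 6.98 CPM to 16.5 and 15.0 CPM (1.16, SE 0.160). Ifih1, a sensor of viral RNA, rose by 0.89 (SE 0.105), while Ifi27l2a fell (-1.67, SE 0.200). Of the related inducible GTPases outside the 2 families, Mx2 was called higher in tumours (0.47, 1 of 5 tested), and Gm4070 (2.04) and Mx2 (0.81) in cultures (2 of 2 tested, also with the trend removed).

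**Figure D4:**
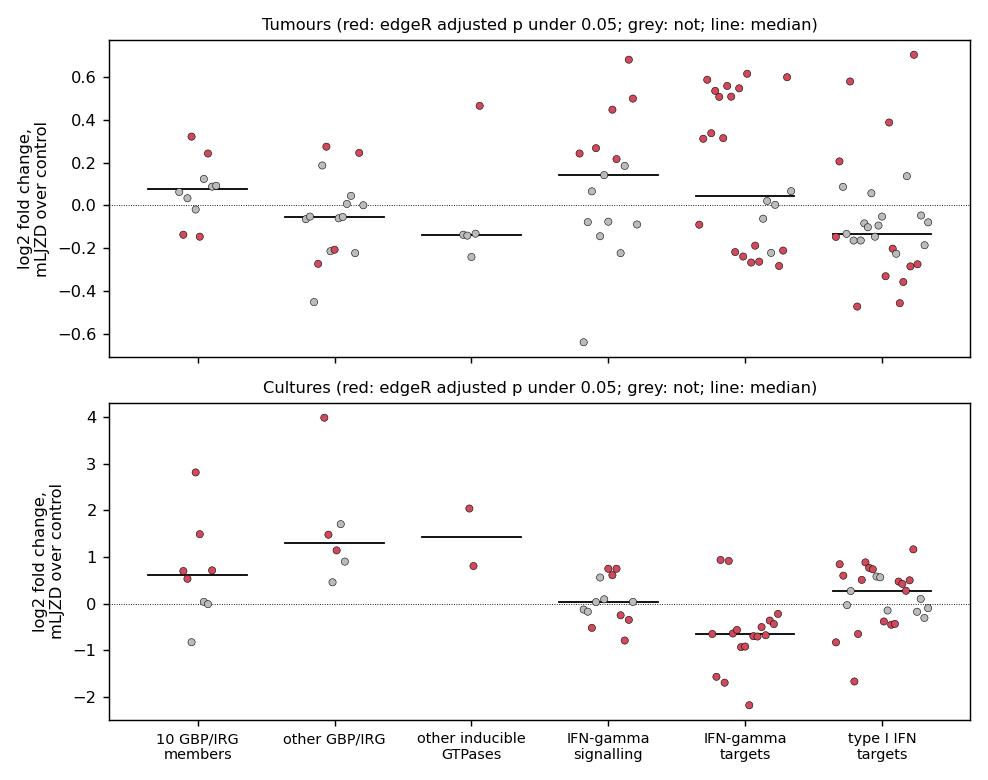
Log2 fold change, mLJZD over control, of each tested gene of the GBP and IRG members and of 5 other lists, in tumours (upper panel) and cultures (lower panel, with a wider vertical axis); each point is a gene, red where edgeR's adjusted p was under 0.05, and the line is the list's median. In cultures the members' median is 0.616 and that of the other interferon-gamma targets -0.648; in tumours they are 0.076 and 0.044.

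IRG and GBP proteins are loaded onto vacuoles with the help of the ubiquitin-like conjugation proteins of autophagy. Of 10 such genes, 4 were called higher and none lower in mLJZD tumours, led by Gabarapl2 and Gabarap (log2 0.31 each). Among all genes 16.1% were called higher and 16.9% lower there. In cultures none was called higher and 6 lower, led by Map1lc3a (-1.13), Gabarap (-0.66), Gabarapl2 (-0.61) and Map1lc3b (-0.53), and 1 higher and 4 lower with the trend removed. The culture shares over all genes were 29% and 26.7%, and 21.3% and 16.8% with the trend removed. Of 8 inflammasome genes that act with GBPs, Il1b (0.94) and Casp4 (0.47) were called higher in mLJZD tumours and Gsdmd (-0.54) and Casp1 (-0.29) lower. In cultures, of 5 tested, Nlrp3 was called higher (1.5) and Gsdmd lower (-0.58), the latter not with the trend removed (-0.13).

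Genes with a pattern over the 8 libraries like that of the members were ranked by the root mean square difference between their centred log2 CPM and the members' median profile, among 16090 tested genes. The members' profile stood at 2.53 to 2.75 in tumour libraries, at -2.80 and -2.84 in control-serum cultures and at -2.09 and -2.13 in mLJZD-serum cultures. The 8 genes outside the set nearest to it were Gbp9 (0.187), Tnik (0.236), Gfpt2 (0.245), Cish (0.246), Il18r1 (0.247), Tbc1d16 (0.252), Gpr153 (0.255) and Pde8a (0.257), with the distance on the log2 scale in parentheses. Of the members, Gbp7 (0.265) lay nearest to the median profile and Iigp1 (2.26) farthest, followed by Gbp4 (1.54) and Irgm1 (1.44). Of these 8 genes, 7 had at most 8 reads in any culture library, where the prior count of 2 on the log scale largely sets their values; Gbp9 is the exception. All share the same libraries.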

How the data were processed

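RNA-seq counts of 8 mouse libraries were used. The deposited table holds the authors' raw gene counts; per the submitters' processing notes, it was made on build GRCm39 with featureCounts 2.0.3, HISAT2 2.2.1, SAMtools 1.14, FastQC 0.12.1 and Trim Galore. Per the labels' protocols, a VAHTS Universal V10 kit for RNA-seq was used. Not given in the sources used here: annotation release, strand setting and treatment of multimapped reads, so overlapping, antisense and near-identical genes may share reads. Symbols and transcript lengths came from GENCODE M21, which named 52029 of 56953 identifiers; the others held 0.343% to 0.596% of a library's counts and were tested unnamed. Of 188 symbols in the gene lists, 183 matched.

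CPM values are counts divided by the library total. All genes passing filterByExpr were tested with edgeR 4.0.16 (R 4.3.3; quasi-likelihood F test, robust, TMM, two-sided) in separate fits of 4 libraries, and the interaction over 8, with Benjamini-Hochberg adjustment over all genes and calls at an adjusted p under 0.05. SE is the log2 fold change over the square root of F. The length and GC trend was removed with loess offsets (span 0.5) per library; 98.4% to 98.6% of tested genes had a length. Code was tested on simulated data. With 2 libraries a group an exact permutation test of 1 gene cannot pass 0.05. Alternatives were other scalings, no filter, DESeq2 1.42.0, a replicate block, 1 fit of all libraries and leaving out each library; non-robust fits, crossed numbers and 2 combinations were added after seeing the data. Same-numbered libraries did not deviate together (correlations -0.106, 0.0226 and -0.00282).

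The members and gene lists were chosen with earlier results of these data known. Named were all 10 members, Ifng and Irf1 (1 further gene of the rule is not reported here), at most the 4 called genes of a list with the largest change, and the 8 genes most like the members. Floors are 3 counts over a group and cover counting error only.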

Additional observations from a re-analysis of the deposited data

Results flagged for a closer look

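The effect of mLJZD differed between tumours and cultures, in the edgeR interaction over 8 libraries, for 6 members, given here as the log2 effect in tumours minus that in cultures: Gbp5 (-2.396), Gbp7 (-1.548), Gbp3 (-0.59), Gbp2 (-0.557), Irgm2 (-0.537) and Gbp4 (0.956). The same difference passed for 4 of 15 other family genes tested, 9930111J21Rik1 (-3.966), Gm4951 (-1.539), 9930111J21Rik2 (-1.455) and Gbp9 (-1.25), and for 1 of 5 inducible GTPases, Gm4070 (-2.102). Over all 16090 genes 20.8% were called lower and 23.9% higher, here and in the lists below. In control-serum cultures 9930111J21Rik1 had only 2 and 5 reads and Gm4951 5 and 4, and Gm4951 was not called in the culture fit.

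Calls higher and lower were 5 and 3 of 15 signalling genes tested, and 6 and 10 of 27 type I targets. They were 8 and 0 of 10 conjugation genes, 1 and 1 of 8 inflammasome genes, and 0 and 3 of 6 epithelial markers. Among interferon-gamma signalling genes named, the difference passed for Socs1 (1.569), Socs3 (0.936), Irf1 (0.874), Nlrc5 (-0.883), Jak2 (-0.31) and Jak1 (-0.217), and the last 3 did not pass with the length and GC trend removed. Among the other interferon-gamma targets named it passed for Cd74 (2.114), Psmb9 (2.005), Batf2 (1.938) and Upp1 (1.12). Of all 24 such targets, 15 were called higher and 0 lower. With the trend removed 5 were called higher and 1 lower, against 15.7% and 17.3% of all genes. Among the type I interferon targets named it passed for Epsti1 (1.278), Ifi27l2a (1.273), Ifih1 (-0.904) and Oas2 (-0.847). Epsti1 and Ifi27l2a did not pass with the trend removed. Epsti1 had 8 and 11 reads with control serum and 6 and 8 with mLJZD serum, too few to be tested in the cultures alone. Among conjugation and inflammasome genes it passed for Gabarap (1.056), Gabarapl2 (1.007), Map1lc3a (0.973), Map1lc3b (0.637), Casp4 (0.636) and Nlrp3 (-1.423), of which Map1lc3a and Casp4 did not pass with the trend removed. Among epithelial markers it passed for Krt18 (-2.618), Krt8 (-2.56) and Krt20 (-0.996). Groups of 2 libraries are too small for the search for a library far from the others.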

How the results depend on the processing

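All 10 members stayed higher in saline tumours than in control-serum cultures under the 14 alternatives run. In tumours the 2 lower calls became 0 with DESeq2, in 1 fit of all 8 libraries and without robust estimation, 1 with the replicate block, and 0 to 1 when a library was left out; without robust estimation as well, leaving out a library gave 0 lower and 0 to 2 higher calls (2 in the main fit). In cultures the 5 higher calls became 3 to 5 when a library was left out, 2 to 5 with the trend also removed and 3 to 5 without robust estimation; the 0 lower calls became 1, Gbp4, in 1 fit of all 8 libraries. In the interaction the 1 higher call became 2 with the trend removed, with or without the replicate block, and 0 to 2 when a library was left out. The labels do not say whether replicate numbers pair the libraries. The replicate block changed no other count of members, and crossed numbers in tumours gave 3 higher and 2 lower. With TMM factors the members' sum was 1686 CPM in saline tumours (1764 by library totals), 1749 in mLJZD tumours (1782), 64.8 in control-serum cultures (59.8) and 81.4 in mLJZD-serum cultures (82.6).

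Signs turned only for members that were not called. In tumours Gbp6 (-0.019) ran from -0.158 to 0.121 when a library was left out, and was 0.008 without saline replicate 2. In cultures Igtp was -0.072 with upper-quartile scaling, -0.04 in 1 fit of all 8 libraries and from -0.222 to 0.367 when a library was left out, and Irgm1 was 0.047 with library totals and from -0.096 to 0.085 when a library was left out (0.039 without mLJZD-serum replicate 2). In the interaction Igtp was -0.005 with library totals, -0.196 with the trend removed, -0.2 with the block as well and from -0.167 to 0.423 when a library was left out, and Iigp1 ran from -0.242 to 0.521. Over all genes, tumour calls went from 5098 to 3287 with DESeq2 and to 1087 and 1974 without mLJZD replicate 1 or 2 and without robust estimation; culture calls went from 7406 to 3408 to 4204 with the trend removed and a library left out. Higher calls made up 53.5% of interaction calls and 39.5% with library totals. The causes were not tested. Culture values of Gbp4, Gbp5, Gbp6 and Iigp1 rest on few reads, as do those of 9930111J21Rik1 and Gm4951.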
